A study of Mus musculus with 19 samples.

Results

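The BCL2 family of apoptosis regulators was followed through 19 RNA-seq libraries, made from CMPs or LSK cells in which an shRNA targeted either the lncRNA *Spehd* or *Renilla* luciferase. Its 10 members here were listed by name, and all 10 were found among the 54352 genes counted. They are the antiapoptotic genes *Bcl2*, *Bcl2l1* and *Mcl1*, the effectors *Bax* and *Bak1*, and the BH3-only genes *Bcl2l11*, *Bbc3*, *Pmaip1*, *Bid* and *Bad*.

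BCL2 family proteins decide whether the outer mitochondrial membrane is opened, the step that releases cytochrome *c* and starts the caspase cascade. Antiapoptotic members hold the effectors in check, and BH3-only proteins relay stress by binding the antiapoptotic members or the effectors directly. Hematopoietic stem cells are known to depend on MCL1, and megakaryocytes, platelets and late erythroid cells on BCL-XL, the product of *Bcl2l1*. Much of this control acts on the proteins, which these libraries do not measure.

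All donor cells were HSCs of C57BL6 mice (C57BL6J in the methods) transduced with a doxycycline-inducible vector in which zsGreen reports the shRNA, and all recipients were sublethally irradiated C57BL/6-CD45.1; cKit-w41 animals, which keep some cells of their own. Bone marrow was taken after 10 weeks of reconstitution and 6 days of doxycycline in every group, and zsGreen+ cells were sorted as LSK cells (lineage negative, Sca1 and cKit positive; KLS in the labels) or as CMPs, myeloid progenitors that have lost Sca1. A viability dye removed dead cells at the sort, so cells that had already died were not sequenced. Knockdown of *Spehd* used the shRNAs sh10 and sh20, and the control shRNA targets *Renilla* luciferase, which mouse cells lack. Of the CMP libraries 3 carried sh10, 2 sh20 (replicates B and C) and 4 the *Renilla* shRNA, and of the LSK libraries 3, 3 and 4. Each well of transduced HSCs was injected into several animals, and whether the libraries of a group came from separate animals or wells is not stated. The p-values below therefore measure the spread between these libraries, which may in part be technical. No counted gene carries the name *Spehd*, so the knockdown itself was not checked here.

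Totals ran from 3647318 to 5965155 counts per library, with a median of 4918631. In CMPs the depth moved with the shRNA, from 3857980 to 4314959 counts with *Renilla*, from 4918631 to 5228700 with sh10 and from 5680969 to 5965155 with sh20. The summed level of 12 stem cell markers was 2190 to 3420 CPM (counts scaled to library size) in LSK cells and 1460 to 2000 in CMPs, and that of 12 erythroid and megakaryocyte markers 983 to 1410 and 2040 to 2700. The 10 granulocyte and monocyte progenitor markers summed to more in LSK cells than in CMPs with *Renilla*, at 1220 to 1460 against 528 to 795 CPM. In CMPs they summed to more with sh10, 990 to 1240 CPM, and to 713 to 761 with sh20.

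The sequences that tie the shRNAs to the family are their guide strands, read from the hairpins that the study lists, with the seed (bases 2 to 8) in capitals. The study does not mark the guide, which was taken to be the 3′ arm of the hairpin, as is usual for miR-E type vectors, and the matches below depend on this.
sh10 guide: tACAAAGTcagcttttcctctc
sh20 guide: tATGCTATgacaacccagggca
A 7-base match to a seed in a 3′ UTR can lower an mRNA in the way a miRNA does. The match to the sh10 seed (ACTTTGT, sense strand) was present in the longest 3′ UTR of 19.4% of 12648 expressed genes, and the match to the sh20 seed (ATAGCAT) in 9.06%. Among the members, sh10 had 2 matches in *Mcl1* and 1 in *Bcl2l11*, and sh20 had 1 in *Bcl2*. A match was found in 27.9% of 3′ UTRs of like length to that of *Mcl1*, in 44.8% for *Bcl2l11* and in 26.6% for *Bcl2*. The other members held no match to either seed in the window searched. The 4 matches are shown with their flanks and the match in capitals, with positions counted from 1 at the start of the 3′ UTR (GENCODE vM21 on GRCm38).
*Mcl1* 841 to 847: agctttttaagACTTTGTcatccgttcta
*Mcl1* 1442 to 1448: tttccattgttACTTTGTctattttggta
*Bcl2l11* 680 to 686: acgccacttccACTTTGTaaatatttacc
*Bcl2* 4112 to 4118: atggtcaagcaATAGCATatgtttcaagt
None of the 3 genes was called lower with the shRNA whose match it held, by edgeR's quasi-likelihood F-test, Benjamini-Hochberg adjusted over all genes tested. In CMPs the log2 fold changes with sh10 against *Renilla* were 0.13 for *Mcl1* (standard error, SE, 0.08, adjusted p = 0.437) and 0.19 for *Bcl2l11* (SE 0.16, adjusted p = 0.560). With sh20, *Bcl2* had 0.06 (SE 0.20, adjusted p = 0.889). With the log2 total count as a covariate, fitted over all 19 libraries in 6 groups, the sh10 value of *Mcl1* was -0.12. Its direction turned in that fit, which also used other libraries and groups. In LSK cells the values were 0.07 for *Mcl1* (SE 0.13) and 0.04 for *Bcl2l11* (SE 0.35) with sh10, and -0.13 for *Bcl2* (SE 0.14, adjusted p = 0.898, edgeR) with sh20. In LSK cells with sh20 against sh10, *Bcl2* had -0.30 (SE 0.15, adjusted p = 0.599, edgeR).

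Levels were compared between the members per length, as CPM per kb of exon. *Mcl1* led in both control populations, with 70.1 ± 7.10 CPM per kb (SD, n = 4) in LSK cells and 68.0 ± 5.99 (SD, n = 4) in CMPs. *Bax* followed with 43.8 ± 3.46 and 64.7 ± 3.47, and then *Bid* with 36.5 ± 1.41 and 47.8 ± 3.45, and *Bad* with 25.5 ± 2.84 and 33.8 ± 3.21. *Mcl1* was above *Bax* in 9 of 10 LSK and 8 of 9 CMP libraries, and *Bad* was above each of the next 3 genes in mean order in every library.

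*Bcl2*, *Bcl2l1* and *Bbc3* formed a group whose order the libraries did not settle. In LSK cells with *Renilla* they stood at 19.8 ± 1.49, 19.3 ± 4.06 and 18.4 ± 3.13 CPM per kb (SD, n = 4), and over all 10 LSK libraries *Bcl2l1* exceeded *Bcl2* in 4. *Bcl2l11* was lower, at 3.41 ± 0.824 in LSK cells and 3.84 ± 0.523 in CMPs. *Pmaip1* and *Bak1* closed the list at 1.86 ± 0.866 and 1.43 ± 0.415 in LSK cells, with 1 to 147 counts per library for *Pmaip1* and 11 to 55 for *Bak1*. At these counts neither gene can show a modest change. On the same scale *Bax* stood 15.6 to 77.6 times above *Bak1*, with a median of 29.3, in the 19 libraries. *Bak1* shares 437 of its 2407 exonic bases with *Ggnbp1* on the other strand, which had 8 to 39 counts, and reads of these bases cannot be told apart.

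**Figure D1:**
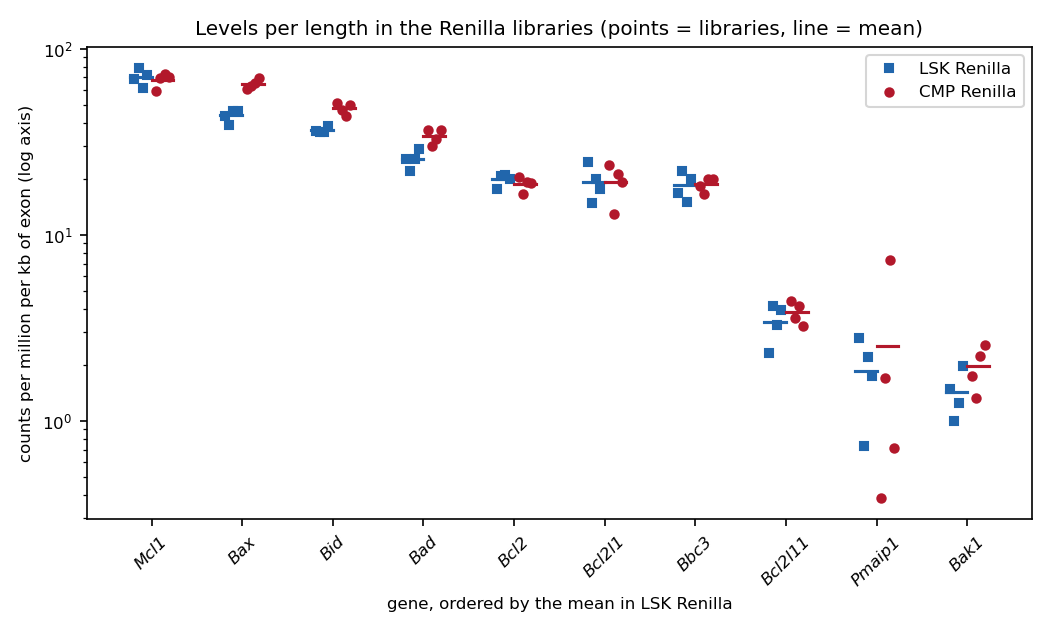
Level of each BCL2 family gene in the 4 LSK and 4 CMP libraries with *Renilla* shRNA, in CPM per kb of exon on a log axis, with genes ordered by their LSK mean. *Mcl1* stands at 70.1 and 68.0, and *Bax*, *Bid* and *Bad* are the genes whose CMP points all lie above their LSK points.

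The first comparison asked how the family differed between CMPs and LSK cells. With *Renilla* shRNA, 2 of the 10 members were higher in CMPs, 0 were lower, and 19.8% of the 15066 genes tested passed (edgeR's quasi-likelihood F-test, FDR under 0.05), so the members' share was like that of all genes. *Bax*, the effector that forms pores in the outer membrane, and *Bid*, which caspase-8 cleaves to link death receptors to mitochondria, were those that rose. The antiapoptotic genes showed no call, with log2 fold changes of -0.08 for *Bcl2*, 0.00 for *Bcl2l1* and -0.04 for *Mcl1* (SEs 0.16, 0.22 and 0.11). The median over the members was 0.28 and that of all genes was -0.02. In bulk RNA, a change in the share of cells that express a gene and a change in RNA per cell cannot be told apart.

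*Bax* lies on chr7:45461697-45466898 on the minus strand. It shares 192 of its 1576 exonic bases with Gm45808 on the same strand, which had 0 counts, and the part of this in the *Bax* values was not tested. With *Renilla* it had 96.1, 99.7, 103 and 109 CPM in CMPs and 61.5, 68.9, 72.8 and 73.2 CPM in LSK cells. The 2 groups did not overlap, as in 33.8% of the 13221 genes averaging 10 counts or more. The means were 102 ± 5.47 and 69.1 ± 5.45 CPM (SD, n = 4 each), a log2 fold change of 0.56 (SE 0.14, adjusted p = 0.00755, edgeR's quasi-likelihood F-test). *Bax* stayed past the threshold without any 1 of the 8 libraries, with log2 fold changes from 0.51 to 0.61. Per kb, the ratio of *Bax* to *Bcl2* averaged 3.46 ± 0.370 (SD, n = 4) for CMPs and 2.22 ± 0.253 (SD, n = 4) for LSK cells, and that of *Bax* to *Mcl1* was 0.954 ± 0.0621 and 0.633 ± 0.105.

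*Bid* lies on chr6:120891930-120916853 on the minus strand. It had 155, 165, 177 and 182 CPM in CMPs with *Renilla*, and 127, 127, 128 and 137 CPM in LSK cells. All 9 CMP libraries, from 155 to 190 CPM with a median of 174, lay above all 10 LSK libraries, which ran from 127 to 151 with a median of 140. Of the 13221 genes, 3.65% lay above in the same way, and *Bid* was the 1 member that did. With *Renilla* the log2 fold change was 0.39 (SE 0.08, adjusted p = 0.00344 by edgeR's quasi-likelihood F-test). It was called without any 1 of the 8 control libraries (log2 fold changes from 0.37 to 0.44), and without a filter on low counts its adjusted p was 0.0757. On the opposite strand, 628 exonic bases of *Bid* are shared with *Bcl2l13*, a relative of the family that acts in mitophagy and had 388 to 1295 counts. *Bcl2l13* was itself higher in CMPs, with 176 ± 35.8 against 115 ± 16.2 CPM (SD, n = 4 each; log2 fold change 0.62, adjusted p = 0.0284, edgeR). Since the library kit does not mark strand, reads of the shared bases cannot be assigned to either gene, and the part of *Bcl2l13* in the *Bid* value was not tested.

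*Bad*, a BH3-only gene whose product is held inactive by survival signalling, lies on chr19:6941861-6951899 and also had its control groups apart, with 76.3, 83.3, 93.0 and 93.2 CPM in CMPs and 56.2, 64.9, 65.3 and 74.1 in LSK cells. Its log2 fold change was 0.41 (SE 0.15) and it missed the threshold (adjusted p = 0.0638, edgeR). *Bad* shares 524 exonic bases with *Gpr137* on the other strand, which had 113 to 299 counts. The other members with *Renilla* had log2 fold changes between 0.02 for *Bbc3* and 0.45 for *Bak1* and *Pmaip1*, with SEs from 0.20 to 0.93. Mature neutrophil markers, 7 genes that summed to 1.95 to 10.3 CPM in CMPs with *Renilla*, reached 4.44 to 311 CPM in the LSK cells, and their part in these values was not tested.

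The regions upstream of *Bax* and *Bid*, the members that rose, are given from the RefSeq promoter table (GRCm38.p6), 250 bases 5′ of the start site on the minus strand. Capitals mark GC boxes (GGGCGG or its complement CCGCCC) and the E-box CACGTG, found on both strands, which do not overlap one another.
*Bax* chr7:45466899-45467148: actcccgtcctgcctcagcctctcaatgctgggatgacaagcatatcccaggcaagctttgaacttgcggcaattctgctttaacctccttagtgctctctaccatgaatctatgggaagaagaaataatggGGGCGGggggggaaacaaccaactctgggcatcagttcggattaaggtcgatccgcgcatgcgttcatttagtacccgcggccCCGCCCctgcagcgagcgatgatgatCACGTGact
*Bid* chr6:120916825-120917074: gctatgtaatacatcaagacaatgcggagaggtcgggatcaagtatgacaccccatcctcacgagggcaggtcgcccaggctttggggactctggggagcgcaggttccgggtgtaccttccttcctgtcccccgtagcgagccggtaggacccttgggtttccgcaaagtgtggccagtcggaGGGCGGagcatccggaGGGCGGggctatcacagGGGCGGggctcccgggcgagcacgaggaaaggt
*Bax* held 2 GC boxes and 1 E-box, and *Bid* held 3 GC boxes. The CCAAT, AP-1 and GATA motifs, also searched, were absent from both. Of the members not called, *Bcl2* held 7 GC boxes, and 1 window of *Bbc3* held 7 with 1 E-box. *Bcl2l1* and *Bak1* held 0 of either. A GC box was present in 32.7% of 32851 promoter windows of 250 bases and the E-box in 6.02%, and both are given as a description only.

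In cells with sh10, 0 of the 10 members passed between CMP and LSK cells by edgeR's quasi-likelihood F-test, where 16.1% of genes did. At an unadjusted p under 0.05 there were 3, or 30% of members and of all genes alike, and DESeq2 called 2 (*Bcl2l1* and *Bid*) among 3071 genes in all. *Bcl2l1* (chr2:152780668-152831728), which encodes BCL-XL, had 48.6, 56.1 and 68.7 CPM in CMPs and 78.1, 79.7 and 125 CPM in LSK cells. These values did not overlap, as in 41.4% of all genes (CMP below in 20.3%), and gave a log2 fold change of -0.70 (SE 0.26, adjusted p = 0.0745, edgeR). *Bbc3* (chr7:16308393-16318205), a p53 target which encodes PUMA, had 27.3, 28.0 and 30.9 CPM in CMPs and 32.3, 33.7 and 61.2 CPM in LSK cells, with a log2 fold change of -0.56 (SE 0.23, adjusted p = 0.117). The highest LSK value of both genes came from replicate B, as did the highest *Bax* (92.0 CPM) and *Bad* (103 CPM) and the lowest *Mcl1* (199 CPM) of the sh10 LSK libraries. That library also had the largest share of listed alignments that were not unique, 50.9% against 39.6% to 47.9% in the other 18. The part of this in its values was not tested. Without LSK sh10 replicate B, edgeR called *Bax* (log2 fold change 0.45, adjusted p = 0.0251) and *Bid* (0.32, adjusted p = 0.0390).

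With sh20, 0 of the 10 members passed by edgeR's quasi-likelihood F-test (14.6% of genes did), and 0 in DESeq2, which called 2886 genes in all. In edgeR 3 had an unadjusted p under 0.05, as had 29.3% of all genes. All 10 log2 fold changes were positive, from 0.07 to 1.89, with a median of 0.38. Of all genes 48.4% were positive, and their median was -0.02. *Bbc3* had 50.2 and 64.4 CPM in CMPs against 30.7, 31.4 and 42.8 CPM in LSK cells, a log2 fold change of 0.71 (SE 0.26, adjusted p = 0.0723). *Bax* had 94.9 and 98.2 against 69.4, 69.9 and 78.4 CPM, a log2 fold change of 0.41 (SE 0.17, adjusted p = 0.119). Without CMP sh20 replicate C, *Bid* was called (log2 fold change 0.42, adjusted p = 0.0353, edgeR), with 1 library left in that arm, which is assumed to vary like the other groups. The value of *Pmaip1*, 1.89 with an SE of 1.17, rested on CMP sh20 replicate B, which held 147 counts where replicate C held 4, and it was -2.24 without replicate B. *Bak1*, at 0.48, was at -1.04 without replicate B, so the common sign of the 10 members rested on that library.

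**Figure D2:**
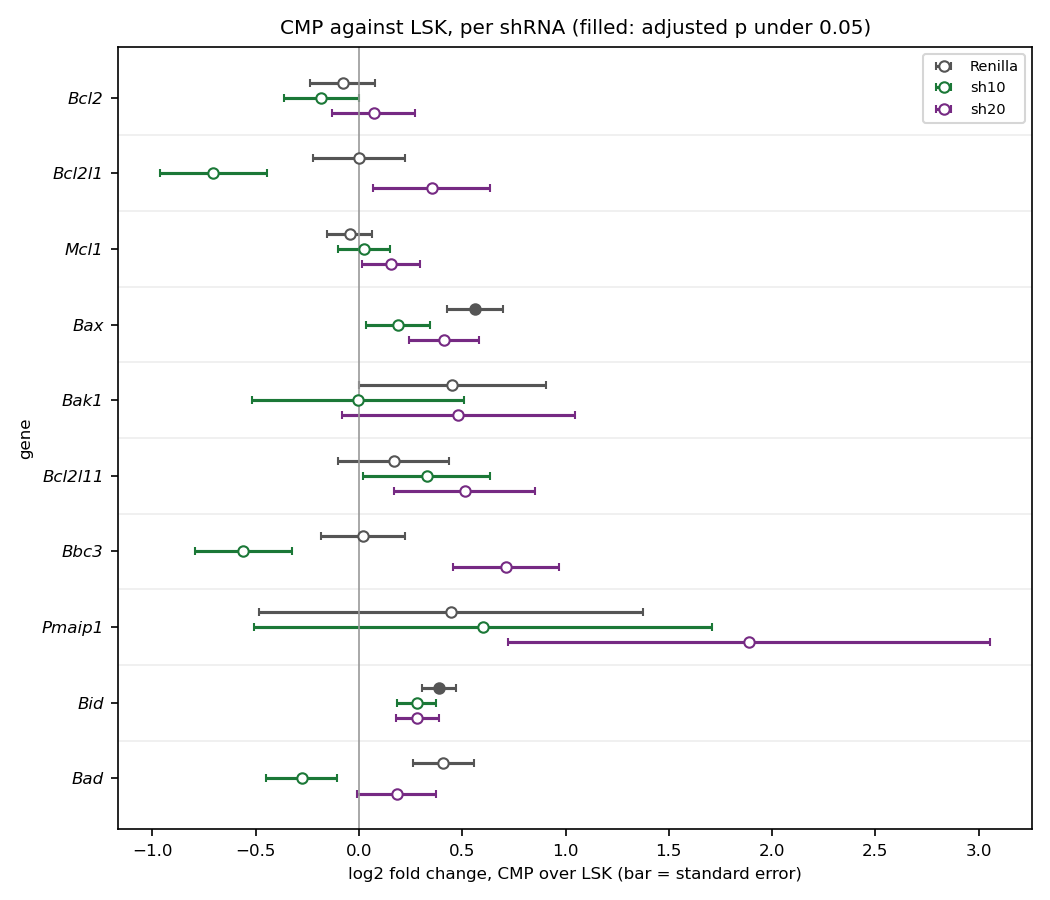
Log2 fold change of CMP over LSK for each BCL2 family gene, fitted for *Renilla*, sh10 and sh20 in 1 model of all 19 libraries, with bars for the SE and filled points past an adjusted p of 0.05. Only *Bax* (0.56) and *Bid* (0.39) with *Renilla* are filled, and *Bcl2l1* and *Bbc3* lie on opposite sides of 0 with sh10 and sh20.

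The second comparison asked whether the family changed upon *Spehd* knockdown. With sh10 and sh20 as 1 group, 0 of the 10 members passed an FDR of 0.05 in CMPs by edgeR's quasi-likelihood F-test, where 0.116% of 12912 genes did. DESeq2, which called 882 genes in all, also called 0. In edgeR 1 member had an unadjusted p under 0.05 (16.6% of all genes). That member was *Mcl1* (chr3:95658788-95663176), whose protein is short-lived and holds BAK in check, with 268 ± 25.4 CPM upon knockdown (SD, n = 5) and 232 ± 20.5 with *Renilla* (SD, n = 4), a log2 fold change of 0.21 (SE 0.09, adjusted p = 0.275, edgeR). The other members lay between -0.22 for *Bax* and *Bad* and 0.20 for *Bcl2l11*. With the log2 total count as a covariate, *Mcl1* was at -0.12, *Bax* at 0.06 and *Bad* at 0.10. All 3 directions turned in that fit. It took all 19 libraries in 6 groups, so it differs from the main fit in more than the covariate.

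In LSK cells 0 of the 10 members passed by edgeR's quasi-likelihood F-test or in DESeq2, and 0 had an unadjusted p under 0.05, where edgeR called 0% of 13441 genes and 3.66% were under that unadjusted p. Of the members with at least 50 counts on average, *Bad* had the largest value, with 77.9 ± 14.0 CPM upon knockdown (SD, n = 6) and 65.1 ± 7.27 with *Renilla* (SD, n = 4), a log2 fold change of 0.25 (SE 0.16, adjusted p = 0.998, edgeR). The knockdown effect in CMPs minus that in LSK cells was called for 0 of the 10 members by edgeR and by DESeq2. Over all genes, edgeR called this difference for 0.0531% of 15066, and DESeq2 for 97 genes. It was largest for *Bad* among members with that count, at -0.46 (SE 0.20, adjusted p = 0.461, edgeR), the 1 member with an unadjusted p under 0.05 (10.1% of all genes).

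**Figure D3:**
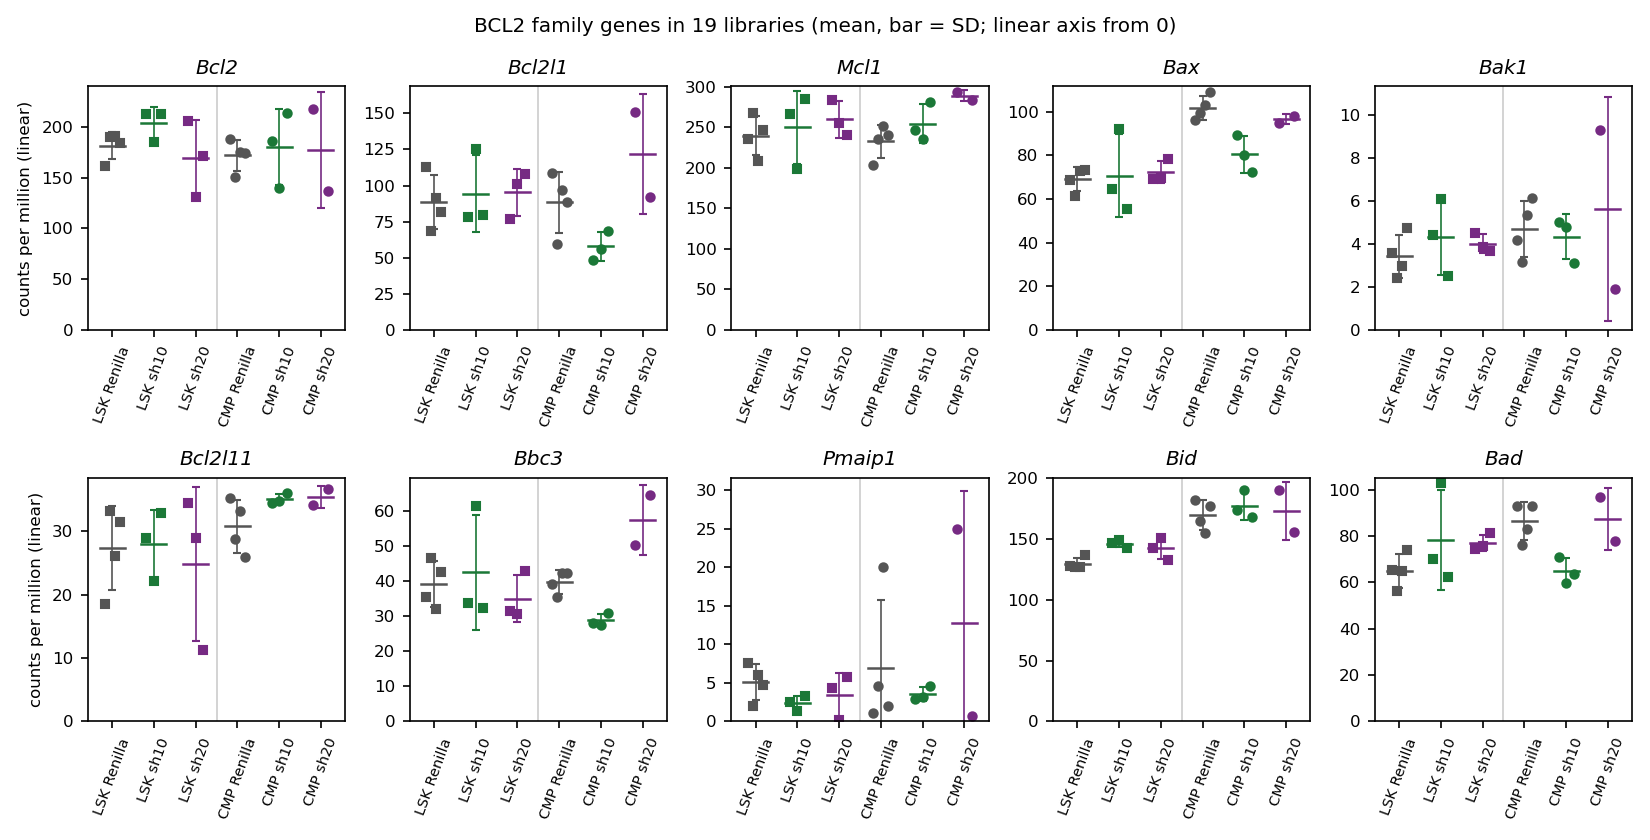
CPM of the 10 BCL2 family genes in each of the 19 libraries on linear axes from 0, with squares for LSK and circles for CMP libraries, lines for group means and bars for the SD. *Bcl2l1* runs from 48.6 to 68.7 in the CMP sh10 libraries and stands at 92.2 and 151 in the CMP sh20 libraries, and *Bid* is higher in all CMP than in all LSK libraries.

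Each shRNA was then set against *Renilla*, with the same control libraries for both. With sh10 in CMPs, 0 of the 10 members passed by edgeR's quasi-likelihood F-test, where 1.97% of 13824 genes did, and 4 had an unadjusted p under 0.05 (21.2% of all genes). DESeq2, which called 1209 genes in all, called 1 member, *Bax* (log2 fold change -0.34, adjusted p = 0.0445). In edgeR the 4 were *Bax* (-0.34, SE 0.10, adjusted p = 0.104), *Bad* (-0.42, SE 0.13, adjusted p = 0.112), *Bbc3* (-0.47, SE 0.15, adjusted p = 0.125) and *Bcl2l1* (-0.62, SE 0.24, adjusted p = 0.178). In the first 3 of these every sh10 library was below every *Renilla* library, as were 13.1% of the 13221 genes. *Bax* had 72.3, 80.4 and 89.2 CPM with sh10, below the lowest *Renilla* value of 96.1, and *Bad* had 59.7, 63.7 and 71.1, below 76.3. Every sh10 CMP library was also deeper than every *Renilla* one, and with the log2 total count as a covariate *Bax* was at -0.14 and *Bad* at -0.19 (adjusted p = 0.997 for *Bax*, edgeR), so the shRNA and the depth cannot be told apart here.

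With sh20 in CMPs, 0 of the 10 members passed by edgeR's quasi-likelihood F-test, 6.17% of genes did, and 2 members had an unadjusted p under 0.05, as had 24.6% of all genes. DESeq2, which called 1709 genes in all, called these 2, *Mcl1* (log2 fold change 0.34, adjusted p = 0.0252) and *Bbc3* (0.56, adjusted p = 0.0401). *Mcl1* had 284 and 294 CPM with sh20 and 203, 236, 240 and 251 with *Renilla*, a log2 fold change of 0.33 in edgeR (SE 0.09, adjusted p = 0.0702, and 0.0490 without a filter). *Bbc3* had 50.2 and 64.4 CPM against 35.3, 39.0, 42.2 and 42.2, with 0.54 in edgeR (SE 0.17, adjusted p = 0.0849). Both genes lay above every *Renilla* library, as did 12.2% of all genes. Once the log2 total count was a covariate, the value of *Mcl1* was -0.12 (adjusted p = 0.878, edgeR). Every CMP sh20 library was deeper than every *Renilla* library, so the shRNA and the depth cannot be told apart for *Mcl1*, *Bbc3* or any other gene here.

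In LSK cells, edgeR's quasi-likelihood F-test and DESeq2 each called 0 of the 10 members with sh10 and 0 with sh20, and no member had an unadjusted p under 0.05 with either shRNA, where 3.3% of all genes had with sh10 and 8.33% with sh20. Over all genes edgeR called 0% of 13828 with sh10 and 0% with sh20, and DESeq2 called 3 and 195 genes. The lowest adjusted p of a member was 0.995 with sh10 and 0.843 with sh20. *Bid* had 143, 147 and 149 CPM with sh10, above all 4 *Renilla* libraries (127 to 137), as did 3.11% of genes, with a log2 fold change of 0.18 (SE 0.10, adjusted p = 0.995, edgeR). *Bad* had 74.5, 75.7 and 81.2 CPM with sh20, above all *Renilla* libraries (56.2 to 74.1), as did 6.46% of genes, with 0.22 (SE 0.19, adjusted p = 0.843, edgeR).

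**Figure D4:**
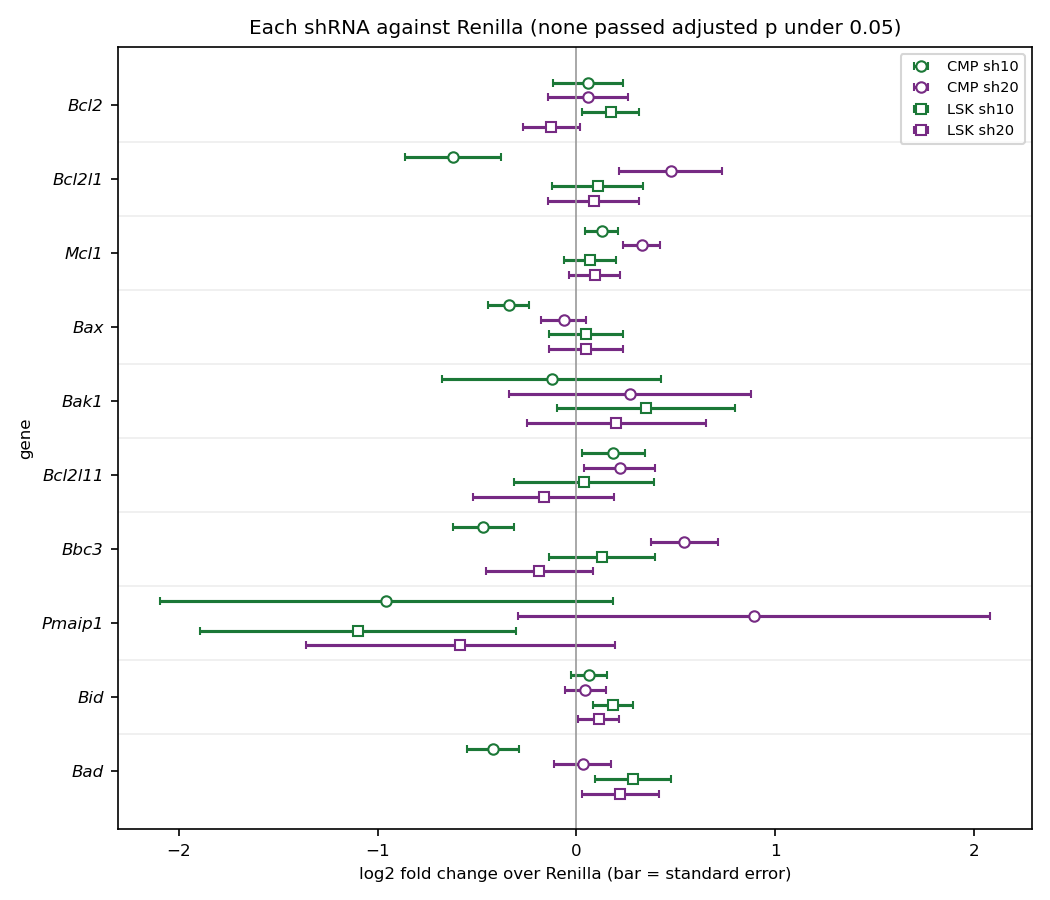
Log2 fold change over *Renilla* for each BCL2 family gene with sh10 or sh20, in CMPs (circles) and LSK cells (squares), with bars for the SE. No point passed an adjusted p of 0.05, and for *Bcl2l1* and *Bbc3* the CMP values are -0.62 and -0.47 with sh10 and 0.47 and 0.54 with sh20.

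Since *Bcl2l1* and *Bbc3* had opposite signs with the 2 shRNAs, sh20 was compared with sh10 directly, a comparison added after these values were seen. In CMPs 2 of the 10 members were higher with sh20 and 0 were lower (edgeR's quasi-likelihood F-test, FDR under 0.05, 6.41% of 13824 genes). DESeq2 called the same 2 members, among 1982 genes in all. *Bcl2l1* stood at 92.2 and 151 CPM with sh20 and at 48.6, 56.1 and 68.7 with sh10, or 122 ± 41.8 (SD, n = 2) against 57.8 ± 10.2 (SD, n = 3). The 4 *Renilla* libraries, at 59.5, 88.4, 97.0 and 109 CPM, overlapped with both shRNAs. The log2 fold change of sh20 over sh10 was 1.09 (SE 0.28, adjusted p = 0.0477).

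*Bbc3* stood at 50.2 and 64.4 CPM with sh20 and at 27.3, 28.0 and 30.9 with sh10, with all 4 *Renilla* libraries between the 2 groups. Its log2 fold change of sh20 over sh10 was 1.01 (SE 0.18, adjusted p = 0.0165, edgeR's quasi-likelihood F-test). An antiapoptotic and a proapoptotic gene were thus both higher with sh20. *Mcl1*, *Bax* and *Bad* were also apart between the 2 shRNAs, sh20 above, as were 18.6% of all genes, and they missed the threshold (adjusted p = 0.230, 0.178 and 0.0987, edgeR). The median over the 10 members was 0.33 and that of all genes 0.00.

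These calls rested on few libraries. *Bcl2l1* lost its call without CMP sh10 replicate A (adjusted p = 0.150), B (0.135) or C (0.0847), and without CMP sh20 replicate B (log2 fold change 0.69, adjusted p = 0.167, edgeR). *Bbc3* lost its call without CMP sh10 replicate A (adjusted p = 0.0675) or B (0.0750), and *Bad* was called without CMP sh20 replicate C (log2 fold change 0.60, adjusted p = 0.0304). Without either sh20 library that arm is 1 library, which is assumed to vary like the other groups. With the replicate letter as a block neither was called (adjusted p = 0.153 for *Bcl2l1* and 0.0738 for *Bbc3*), and with the depth covariate *Bbc3* was not (adjusted p = 0.0660, edgeR). Besides the depth, other measures moved with the same split of libraries. The T cell genes *Cd3e* and *Cd3g* had 0 to 5 counts in the sh10 CMP libraries, 68 to 262 in the sh20 and 35 to 77 in the *Renilla* CMP libraries, and the 9 lymphoid markers summed to 128 to 166, 274 to 303 and 212 to 284 CPM. Immediate early genes, 18 in all, summed to 620 to 691 CPM with sh10, 830 to 838 with sh20 and 914 to 1410 with *Renilla*. Granulocyte and monocyte progenitor markers summed to 990 to 1240 CPM with sh10 and 713 to 761 with sh20, and erythroid and megakaryocyte markers to 2040 to 2090 and 2290 to 2320. Genes detected numbered 19042 to 20275 with sh10 and 17174 to 18066 with sh20. This gap was also present in LSK cells, at 20142 to 20678 with sh10 and 17587 to 17817 with sh20. The share of listed alignments that were not unique was 41.0% to 43.2% with sh10 and 47.6% to 47.9% with sh20. The part of these in the *Bcl2l1* and *Bbc3* values was not tested.

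In LSK cells 0 of the 10 members differed between sh20 and sh10 by edgeR's quasi-likelihood F-test, which called 0% of 13828 genes. DESeq2 called 0 members too, and 256 genes in all. In edgeR 0 members had an unadjusted p under 0.05, where 9.17% of all genes had. *Bcl2l1* had 76.9, 101 and 108 CPM with sh20 and 78.1, 79.7 and 125 with sh10, and *Bbc3* had 30.7, 31.4 and 42.8 against 32.3, 33.7 and 61.2, so both genes overlapped. The difference of the sh20 over sh10 effect between CMP and LSK cells was 1.06 for *Bcl2l1* (SE 0.38, adjusted p = 0.242) and 1.27 for *Bbc3* (SE 0.35, adjusted p = 0.130) by edgeR's quasi-likelihood F-test. None of the 10 members passed there, 2 had an unadjusted p under 0.05 (13.4% of all genes), and 0.259% of 15066 genes passed. DESeq2 called *Bbc3* (log2 value 1.29, adjusted p = 0.0327), 1 of 303 genes it called there.

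*Bcl2* and *Bcl2l11* passed in none of these comparisons by edgeR. *Bcl2*, on chr1:106538178-106714274, had 131 to 218 CPM over the 19 libraries, and the extremes fell in LSK sh20 replicate B and CMP sh20 replicate B. *Bcl2l11* (chr2:128126038-128162547), which encodes BIM, a BH3-only protein that limits survival of blood cells, had 34.2 to 36.7 CPM in the 5 CMP knockdown libraries and 11.2 to 34.5 in the 6 LSK ones, where replicate C of sh20 was lowest. With sh10 its CMP libraries (34.5 to 36.1 CPM) all lay above its LSK libraries (22.2 to 32.9), as did 21.1% of genes. *Pmaip1*, a p53 target that encodes NOXA and pairs with MCL1, exceeded 80 counts in 2 libraries, CMP *Renilla* replicate C with 86 and CMP sh20 replicate B with 147. Its group values therefore had SDs above their means in both groups, at 6.90 ± 8.83 CPM (SD, n = 4) and 12.8 ± 17.1 (SD, n = 2).

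Over the 19 libraries *Bax* and *Bad* followed each other most among the members (Pearson r = 0.73 in log2 CPM), then *Bcl2l1* and *Bad* (0.64), *Bak1* and *Bad* (0.62) and *Bax* and *Bid* (0.62), and *Bcl2l1* and *Bbc3* had 0.59. The libraries share cell type, depth and preparation, so these are descriptions. Among 10484 genes with at least 50 counts on average, those most like *Bax* were A430005L14Rik (r = 0.97), *Mrpl55* (0.95) and *Blvra* (0.93). The gene most like *Bcl2* was D630008O14Rik (r = 0.77), which lies antisense to it and shares 558 exonic bases, so that reads of the shared bases cannot be told apart. *Slc25a44* was most like *Bid* (0.92), *Susd3* most like *Bcl2l1* (0.86) and *Iah1* most like *Bbc3* (0.87).

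Around the members, 4 pathway lists were followed in the same tests. The list called caspase activation held 25 genes, most of which act after the mitochondrial step and not all of which act on caspases. Of these, 6 were higher and 2 lower in control CMPs than in control LSK cells, beside 19.8% of all genes called. The median of the list was 0.21 on the log2 scale against -0.02 for all genes. *Htra2*, a mitochondrial protease that antagonises inhibitors of caspases, rose by 0.68 on the log2 scale, *Endog*, a mitochondrial nuclease, by 0.54, and *Aifm1*, the apoptosis-inducing factor, by 0.48 (adjusted p = 0.000254, 0.0231 and 0.00761, edgeR's quasi-likelihood F-test). The 2 that were lower, *Casp2* (-0.47, adjusted p = 0.000938) and *Casp8* (-0.42, adjusted p = 0.00129, edgeR), initiator caspases, were named after their values were seen. *Aifm1* was also called higher in CMPs with sh10 (0.64) and with sh20 (0.63).

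Of 14 other BCL2 family genes, 9 could be tested between CMP and LSK cells, and 3 were called with *Renilla* beside 19.8% of all genes. With *Renilla*, *Bcl2l13* was higher, and *Bok*, an effector relative of *Bax*, was lower, with 5.61 ± 1.14 against 16.3 ± 4.84 CPM (SD, n = 4 each; log2 fold change -1.53, adjusted p = 0.00814, edgeR). *Bcl2l14*, named after its values were seen since it averaged 32.7 counts, was the other gene called lower (-1.46, adjusted p = 0.0386, edgeR). *Bok* was also called lower with sh10 (-2.98) and sh20 (-1.89). Upon knockdown none of these genes was called. With sh20 against sh10 in CMPs *Bcl2l14* was (-3.04, adjusted p = 0.0434, edgeR), beside 6.41% of all genes called.

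Of 20 p53 target genes, 4 were higher and 1 lower in CMPs with *Renilla*, a share near the 19.8% of all genes. *Btg2*, which slows proliferation, rose by 0.57, *Aen*, an apoptosis-enhancing nuclease, by 0.46 and *Rps27l* by 0.45, *Trp53* itself, named after its values were seen, had 0.29 (adjusted p = 0.00989, edgeR), and *Sesn1* fell by 0.44 on the log2 scale. With sh20, 4 of the 20 were higher and 3 lower in CMPs than in LSK cells, beside 14.6% of all genes, among them *Cdkn1a* (1.90), the cell cycle inhibitor p21, and *Sesn2* (1.53). With sh20 against *Renilla* in CMPs, 2 of the 19 tested were higher beside 6.17% of all genes called, *Ccng1* (0.41, adjusted p = 0.0375) and the low-count *Zmat3* (1.80, adjusted p = 0.0382, edgeR), the latter named after its values were seen. With sh20 against sh10, 1 of 19 was higher beside 6.41% of all genes called, *Btg2* (1.33, adjusted p = 0.0223, edgeR), which is also an immediate early gene. *Bbc3* and *Pmaip1*, counted among the members here, are p53 targets as well.

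Of 17 regulators of *Mcl1* and *Bcl2l11*, 2 were higher and 2 lower among the 16 tested between CMPs and LSK cells with *Renilla*, a share near the 19.8% of all genes. *Ddit3* (0.57) and *Atf4* (0.44), transcription factors of the stress response that raise BH3-only genes, were higher, and *Huwe1* (-0.54), a ubiquitin ligase of MCL1, and *Stat3* (-0.39), which can raise *Mcl1*, were lower. With sh10 against *Renilla* in CMPs, 2 of 15 were higher beside 1.97% of all genes called, *Huwe1* (0.73, adjusted p = 0.0463) and *Usp9x* (1.18, adjusted p = 0.0495, edgeR), a deubiquitinase that stabilises MCL1. With sh20 1 of 15 was lower beside 6.17% of all genes called, *Myc* (-0.42, adjusted p = 0.00993, edgeR), and with sh20 against sh10 1 of 15 was lower beside 6.41%, *Stat5a* (-0.39, adjusted p = 0.0377, edgeR), which acts downstream of cytokine receptors on *Bcl2l1*. With both shRNAs as 1 group, no gene of the 4 lists was called in CMPs by edgeR, with an unadjusted p under 0.05 for 5 of 25 caspase activation genes, 5 of 17 p53 targets, 6 of 15 regulators, 0 of 5 other family genes and 16.6% of all genes. No gene of the 4 lists was called in LSK cells upon knockdown or between the 2 shRNAs there.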

How the data were processed

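RNA was sequenced from 19 bulk libraries of sorted cells, prepared with a SMART-Seq v4 kit. The submitters' processing notes and methods name STAR for the mapping by the authors to mm10, Picard for taking out duplicates, HTSeq for counting on genes, and DESeq2. The deposited count of each gene is a whole number of reads per library without normalization, and was used as it is. No strand setting is named. The methods give default parameters in general, HTSeq's default assigns reads by strand, and the kit does not mark it. Reads listed as on no feature were 1.10 to 1.19 times those counted, and what part of this comes from strand was not tested. Rows that name no gene (between genes, not unique or ambiguous) held 72.0% to 77.7% of the alignments listed and stayed out of library sizes and tests. A table of size-factor-normalized counts was deposited too and was not used.

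Groups came from the labels. Counts were normalized by TMM, filtered with filterByExpr (minimum count 10, minimum total 15) and tested with the quasi-likelihood test of edgeR 4.0.16 in R 4.3.3, on all genes, with Benjamini-Hochberg adjustment over all genes tested and a threshold of 0.05. Knockdown was fitted per cell type, each shRNA in a fit of the 3 groups of a cell type, and CMP against LSK over all 6 groups in 1 model. CPM used TMM library sizes, log2 CPM a prior count of 2. DESeq2 1.42.0 was an alternative, as were its size factors, no filter, the replicate letter as a block, log2 total counts as a covariate, the shRNAs as separate groups and leaving out each library. The depth covariate was fitted over all 19 libraries in 6 groups, also for comparisons within a cell type. The test code was checked on simulated data. At these totals counting error is small for the 8 members with over 50 counts in every library, and large for *Bak1* and *Pmaip1*.

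GENCODE vM21 (GRCm38) gave exonic lengths, coordinates and 3′ UTRs by gene symbol, and RefSeq the promoters. All 10 members are named, and list genes where they passed the threshold, at most 4 per list and comparison with the largest change among those with a mean of at least 50 counts. The values of 1 list gene that the rule names are not reported here. The members and lists were chosen with earlier results of these data known. Figures used Python 3.11.15 and matplotlib 3.10.9.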

Additional observations from a re-analysis of the deposited data

Results flagged for a closer look

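In the direct comparison of sh20 with sh10 in CMPs, which was added because the 2 genes had been seen with opposite signs and is no independent evidence, 2 members passed, with log2 fold changes of 1.09 for *Bcl2l1* and 1.01 for *Bbc3* in edgeR's quasi-likelihood test. With the replicate letter as a block neither passed (adjusted p = 0.153 and 0.0738, edgeR), and with the depth covariate *Bbc3* did not (adjusted p = 0.0660, edgeR). *Bcl2l1* also lost its call in 4 and *Bbc3* in 2 of the 5 fits that left out a CMP library with either shRNA. Lymphoid markers, genes detected (in LSK cells too) and the share of alignments that were not unique moved with the same split of libraries, and their part was not tested.

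In the 4 LSK libraries with *Renilla* shRNA, *Bid* in replicate D stood apart from the others, at 137 CPM against 127 to 128. The gap was 0.858 of the whole range, where 0.829 is Dixon's 95% critical value for 4 samples. This was 1 of 20 groups of members and libraries examined, and chance gives about 1 in 20. Replicate D was the LSK *Renilla* library nearest to the CMP values.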

How the results depend on the processing

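The calls of the members were few and moved with the tool and the library. Over all members and alternatives 1730 values were computed, 10 lost a call, 13 gained one, and no called value changed sign, but 158 uncalled values did, 42 of them by more than their standard error. The number of members called was 0 in CMPs or LSK cells upon knockdown under every alternative. With sh10 against *Renilla* in CMPs it was 1 by DESeq2. With sh20 against *Renilla* in CMPs it was 1 without a filter and 2 by DESeq2. Between CMPs and LSK cells with *Renilla* it was 2 in the fits that left out a library and 1 without a filter. With sh10 it was 1 without a filter, 2 by DESeq2, and 0 to 2 when a library was left out, and with sh20 it was 0 to 1 when a library was left out. For sh20 against sh10 in CMPs, added after the values were seen, it was 1 with log2 total counts as a covariate and 0 to 3 when a library was left out. The difference of that effect between cell types had 1 without a filter (*Bcl2l1*, 1.07, adjusted p = 0.0315, edgeR) and 1 by DESeq2. The causes were not tested.

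Whether replicate letters pair the libraries is not stated, and not every correlation was over 0.1, so they were not taken as pairs. Deviations from the group means correlated at 0.003 to 0.259 between CMP and LSK libraries of the same shRNA and letter (9 pairs, median 0.043), at -0.214 to 0.131 for other letters (22 pairs, median -0.032), and at -0.175 to 0.156 between libraries of the same cell type and letter (16 pairs). With the letter as a block, sh20 against sh10 in CMPs called 0 members (adjusted p = 0.153 for *Bcl2l1* and 0.0738 for *Bbc3*, edgeR), and the members called in the other comparisons kept their number.

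Over all genes, the number called by edgeR upon knockdown in CMPs was 15, and it was 0 without sh10 replicate B, 264 without sh20 replicate B, 29 without a filter, 882 by DESeq2, 0 with the block, 5 with the depth covariate and 674 with the shRNAs as separate groups. With sh10 it was 272, and 9 without sh10 replicate B, 797 without a filter, 1209 by DESeq2, 5 with the block and 1 with the depth covariate. With sh20 it was 853, and 3191 without sh20 replicate C, 430 without *Renilla* replicate B, 1709 by DESeq2, 0 with the block and 20 with the depth covariate. For sh20 against sh10 in CMPs it was 886, and 84 to 3484 when a library was left out, 1485 without a filter, 1982 by DESeq2, 28 with the block and 583 with the depth covariate. Between CMPs and LSK cells it was 2424 with sh10, and 1291 without CMP sh10 replicate B, and 2197 with sh20, and 1436 without CMP sh20 replicate B. In LSK cells edgeR called 0 with either shRNA, against 9 and 73 without a filter and 3 and 195 by DESeq2, and 0 for sh20 against sh10, against 113 and 256. The difference of the knockdown effect between cell types had 8, against 0 to 263 when a library was left out, 253 without a filter and 97 by DESeq2, and the difference of sh20 against sh10 had 39, against 20 to 806, 515 and 303. *Pmaip1* and *Bak1*, at 1 to 147 and 11 to 55 counts, could show large changes only.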
